A study of Mus musculus with 30 samples.

Results

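The *Rhox* cluster is a group of homeobox genes on the mouse X chromosome, and RNA of 6 of its members, *Rhox1*, *Rhox5*, *Rhox6*, *Rhox9*, *Rhox10* and *Rhox13*, was followed in 30 bulk RNA-seq libraries of mouse embryonic stem cells (mESCs). The members were taken by symbol, through their Ensembl identifiers in GENCODE M21 (GRCm38), and are 6 of the 55421 genes in the table of counts. They were picked because their level differed between the wild-type and the *Rnf12* heterozygous XX line, so that comparison is given below as a description without a test. Of the other 36 *Rhox* genes in the table, 32 stayed under 10 counts in every library.

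*Rhox* genes encode homeodomain proteins, a class of DNA-binding transcription regulators, and are known for expression in the testis, the ovary and the placenta. *Rhox5*, the founding gene of the family and also called *Pem*, is active in testis, epididymis, placenta and embryonic stem cells. *Rhox6* and *Rhox9* are a pair of close paralogues expressed in placenta and germ cells, and *Rhox10* and *Rhox13* are best known from male germ cells. Genes of the cluster are silenced by promoter DNA methylation in most somatic tissues, and female mESCs, which keep both X chromosomes active, have low DNA methylation compared with male cells.

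All libraries came from female hybrid mESCs with one X chromosome from 129/Sv (called *Mus* here) and one from Cast/Ei (*Cast*), grown on irradiated fibroblast feeders that were depleted by pre-plating before RNA was made. XX wild type had both X chromosomes intact. XX *Rnf12* +/- carried a heterozygous deletion of *Rnf12* (*Rlim* in the annotation, the ubiquitin ligase that promotes *Xist* expression) on the *Mus* X. XCastO129 had lost the *Mus* X and X129OCast the *Cast* X, so that the second had only the X with the deleted *Rnf12*. The XO lines arose from cells that lost an X during targeting. The 13 deletion lines carried a heterozygous *Rnf12* deletion plus a second deletion of a segment of the *Mus* X, with a neomycin cassette left in its place. Deletions A to I and K were made in one *Rnf12* +/- line, and J and I-TEL in a second, independently derived one, whose *Rnf12* deletion was made with other guide RNAs. Which of these founders the XX *Rnf12* +/- libraries represent is not stated in the labels. The XX and XO conditions had 2 libraries each, 9 deletion lines had 2 clones, and the lines A, B, AB and C-G were represented by 1. The *Rhox* cluster lies inside deletions C and C-G and outside the other 11, so that C and C-G kept 1 copy, on the *Cast* X, and the other deletion lines kept 2.

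The libraries held 20375194 to 21181405 counts for the 6 XX and deletion E libraries, 8816184 to 10680026 for the other 20 deletion libraries and 14998265 to 16494893 for the 4 XO libraries, and these 3 sets carry 3 different prefixes in their library names. The XO set was sequenced with single reads and the others with paired reads. *Rlim* was at 211 and 193 TPM (transcript abundance per length, scaled to a common total) in XX wild type, at 77.6 and 79.7 in XX *Rnf12* +/- and at 3.53 in both X129OCast libraries, so the targeted gene followed the labels in these lines. Among the deletion lines *Rlim* varied, from 50.4 and 57.8 TPM in D to 99.4 and 116 in E and 144 and 107 in C. The summed level of 7 naive mESC markers was between 4212 and 6441 TPM in all 30 libraries. That of 9 fibroblast markers was between 71.2 and 348 TPM. The p-values below measure the spread between clones or libraries of a line, which may in part be technical, and in bulk RNA fewer cells expressing a gene and less RNA per cell cannot be told apart.

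The members span 916.2 kb of the X chromosome, from position 37213804 to 38129967. From the centromeric side these are *Rhox1* (ENSMUSG00000071773, 37213804 to 37222258, minus strand), *Rhox5* (ENSMUSG00000095180, 37804842 to 37808876, plus), *Rhox6* (ENSMUSG00000006200, 37826910 to 37829857, plus), *Rhox9* (ENSMUSG00000068048, 37899097 to 37901770, minus), *Rhox10* (ENSMUSG00000053909, 38066475 to 38071691, plus) and *Rhox13* (ENSMUSG00000050197, 38121219 to 38129967, plus). *Rhox6* and *Rhox9* share sequence: 159 of the 961 windows of 50 bases in *Rhox6* transcripts (16.5%) also occur in *Rhox9*, where they are 6.28% of the windows. Counts of this pair are therefore uncertain in their split, while no window of *Rhox1*, *Rhox5*, *Rhox10* or *Rhox13* was shared with another *Rhox* transcript.

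RefSeq gave a start site for 4 of the 6 members, and the 250 bases before it differ in their number of CG dinucleotides, the site of DNA methylation. Those of 3 members are shown because the results below turn on *Rhox1*, *Rhox5* and *Rhox10*, with every CG in capitals, on the strand of the gene and in GRCm38.p6. They lie at chrX:37222259-37222508 (minus), chrX:37754358-37754607 (plus) and chrX:38066225-38066474 (plus).
Rhox1: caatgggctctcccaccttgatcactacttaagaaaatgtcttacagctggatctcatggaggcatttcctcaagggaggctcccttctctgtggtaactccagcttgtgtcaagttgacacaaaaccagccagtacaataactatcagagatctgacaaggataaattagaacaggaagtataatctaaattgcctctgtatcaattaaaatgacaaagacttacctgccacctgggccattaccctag
Rhox5: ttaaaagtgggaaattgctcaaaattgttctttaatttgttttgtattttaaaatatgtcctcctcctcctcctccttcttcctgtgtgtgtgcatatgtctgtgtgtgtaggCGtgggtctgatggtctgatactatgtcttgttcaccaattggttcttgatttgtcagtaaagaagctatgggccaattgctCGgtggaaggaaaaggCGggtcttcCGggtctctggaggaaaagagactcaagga
Rhox10: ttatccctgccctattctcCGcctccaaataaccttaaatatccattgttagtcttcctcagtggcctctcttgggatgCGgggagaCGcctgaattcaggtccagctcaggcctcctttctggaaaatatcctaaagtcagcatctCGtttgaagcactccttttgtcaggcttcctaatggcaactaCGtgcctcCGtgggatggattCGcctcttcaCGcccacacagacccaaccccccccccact
The *Rhox1* stretch holds no CG, as did 7.87% of the 32851 promoters of that length. *Rhox5* holds 4, and 44.4% of promoters had no more. *Rhox10* holds 8, and 59.7% had no more, while the median promoter held 6. The RefSeq start of *Rhox5* lies 50.2 kb upstream of the start of the GENCODE gene to which the counts belong, so this is the stretch of another annotated start. DNA methylation was not measured in these libraries.

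*Rhox5* was the member with the highest level per length, and the cluster varied widely between lines. In every statement below, TPM is the level per length, and TPM per copy is that level divided by the number of X-linked copies of the gene in the line. Over the 30 libraries *Rhox5* had 71 counts at the lowest, 717 at the median and 5947 at the highest. *Rhox6* ranged from 47 through 254 to 2265 counts, and *Rhox9* from 29 through 174 to 1714. *Rhox1* was lower, from 2 through 43 to 236. *Rhox10* (0, 9 and 18) and *Rhox13* (1, 10 and 39) were close to the limit of detection, and differences in them are read with their counting error. All 6 members passed the filter of 10 counts in 2 libraries.

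**Figure D1:**
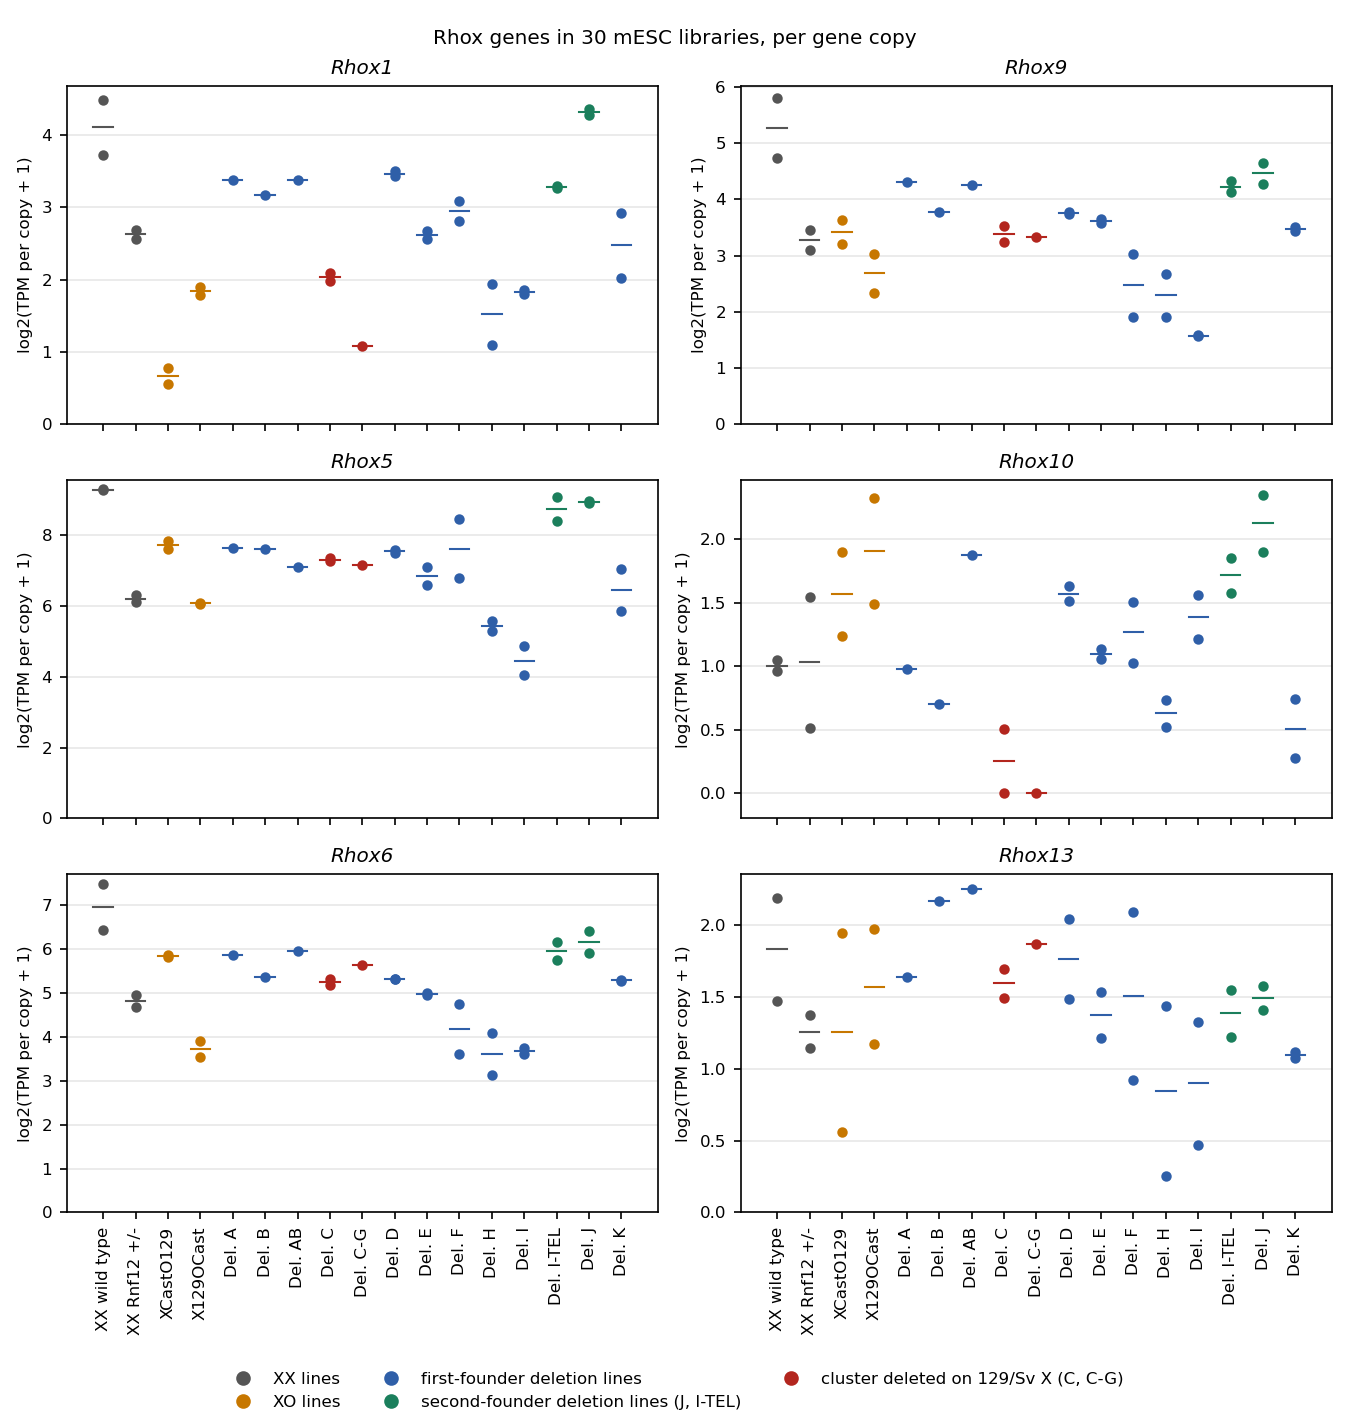
Level of each *Rhox* gene in the 30 libraries, as log2(TPM per copy + 1) on the vertical axis, by line on the horizontal axis. Points are libraries, horizontal bars are the means of a line, and colours mark XX lines, XO lines, deletion lines of the first and second founder, and the lines that lack the *Mus* copy of the cluster. XX wild type has the highest mean of *Rhox5*, *Rhox6* and *Rhox9*, and deletions J and I-TEL lie next for *Rhox5*.

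XX wild type stood above XX *Rnf12* +/- for 5 of the 6 members. *Rhox5* was at 1248 and 1260 TPM in the wild-type libraries and at 137 and 157 TPM in the *Rnf12* +/- libraries, an 8.54-fold difference of means. The libraries of each line lay close together, and the lines did not overlap. *Rhox6* was at 171 and 358 TPM against 60.3 and 49.7, 4.81-fold. *Rhox9* was at 51.3 and 110 TPM against 19.8 and 15.1, 4.62-fold. The second wild-type library was the higher one for both genes, and the lower one still lay above both *Rnf12* +/- libraries.

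*Rhox1* was at 24.5 and 42.7 TPM against 10.9 and 9.78, 3.25-fold. *Rhox13* was at 3.55 and 7.11 TPM against 3.17 and 2.42, 1.91-fold. *Rhox10* was at 2.15 and 1.88 TPM against 0.857 and 3.84, and here the libraries of the lines overlapped. These differences chose the members and were not tested. Over all genes, 0.00590% of 16944 were called between these lines by an adjusted p under 0.05 with a log2 fold change beyond 1. At an unadjusted p under 0.05 by the edgeR quasi-likelihood test there were 1475. That fit did not pair equally numbered libraries, whose deviations correlated at 0.79 between these lines. The share is therefore no measure for the members. The wild-type library with the higher *Rhox6* and *Rhox9* had the lower fibroblast marker sum, 100.9 TPM against 272, and the *Rnf12* +/- libraries were at 332 and 106 TPM.

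Deletion E, which alone among the deletion lines shares a library set with the XX lines, gave no call against XX *Rnf12* +/- in any member by the edgeR quasi-likelihood test. *Rhox5* was at 192 and 276 TPM in its 2 clones, both above 157, the higher *Rnf12* +/- library, and the log2 fold change was 0.61 with an interval from -0.14 to 1.36 (adjusted p = 0.592). None of the 6 members passed, also at an unadjusted p under 0.05 or with DESeq2. By edgeR, 0.0655% of all 18316 genes were called. The intervals of *Rhox6* (-0.54 to 0.74) and *Rhox9* (-0.38 to 0.99) lie within a log2 value of 1 either way.

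The other 10 lines with 2 copies of the cluster differed from XX *Rnf12* +/- in both directions. Of 60 pairs of a line and a member, 16 passed the test, 11 higher and 5 lower, against 14.4% of all pairs of a line and a gene. These lines belong to another library set than XX *Rnf12* +/-, so set and line cannot be told apart, and the XX *Rnf12* +/- libraries are among those on which the members were chosen. Of the 16 pairs, 6 are from J and I-TEL, and it is not known whether these lines and XX *Rnf12* +/- share a founder. Without the first *Rnf12* +/- library, 4 pairs passed.

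*Rhox5* passed in 7 of the 10 lines. It was higher in J (log2 fold change 2.67), I-TEL (2.49), F (1.65), A (1.39), B (1.33) and D (1.30), and lower in I (-1.79). A and B were represented by 1 clone each. The level of *Rhox5* ran from 31.1 and 56.2 TPM in the clones of I, through 93.5 and 77.2 in H, to 1002 and 970 in J. The clones of I and H lay far below those of J, and no clone of one of these lines overlapped with another. Clones lay further apart in F, at 706 and 219 TPM, and in K, at 114 and 263.

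*Rhox6* passed in 4 lines, higher in J (log2 fold change 1.32) and I-TEL (1.08) and lower in I (-1.25) and H (-1.23). *Rhox9* passed in J (1.21) and I (-2.17). *Rhox1* passed in J (1.79), D (0.92) and H (-1.41). *Rhox10* and *Rhox13* passed in none, and no member passed in AB or K. Ordered by TPM per copy, the 17 lines gave 16 neighbouring pairs, and the libraries of neighbours overlapped in 6 of them for *Rhox1*, 7 for *Rhox5*, 7 for *Rhox6*, 9 for *Rhox9*, 13 for *Rhox10* and 14 for *Rhox13*. Much of the order is therefore loose. For *Rhox5*, XX wild type (mean 627 TPM per copy) came first, J (493) and I-TEL (441) next, and H (42.7) and I (21.8) last.

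**Figure D2:**
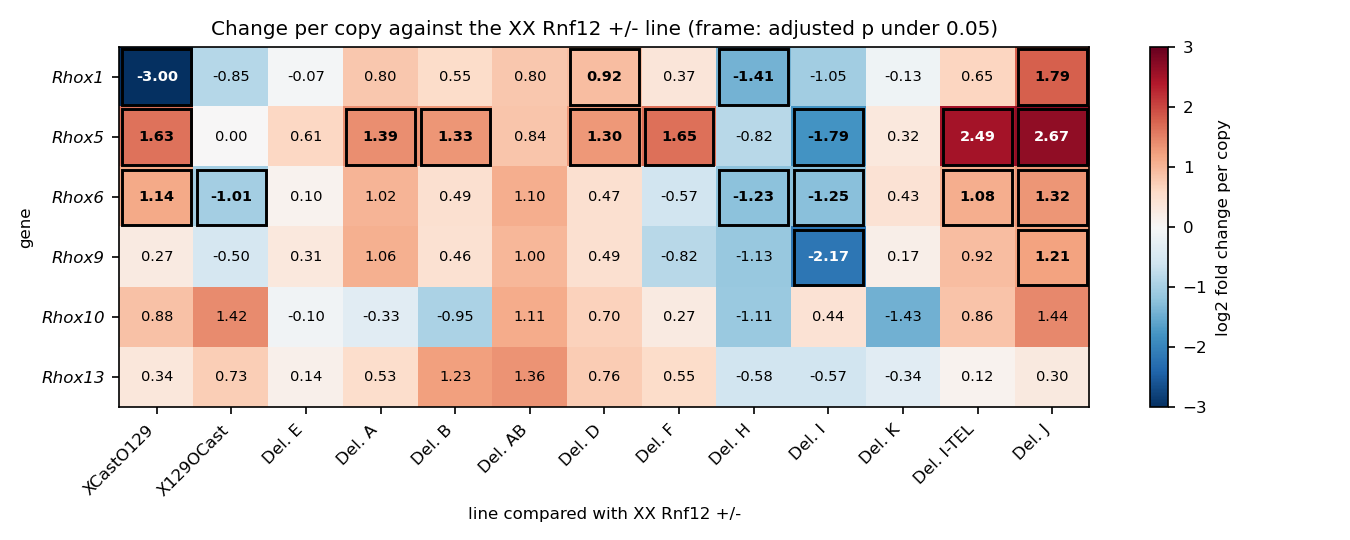
Log2 fold change per copy of each *Rhox* gene (rows) in each line (columns) against XX *Rnf12* +/-, with the value printed in each cell and a black frame where the edgeR adjusted p was under 0.05. *Rhox5* carries most frames, and deletion E, AB and K carry none.

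Lines from the second *Rnf12* +/- founder, J and I-TEL, had higher levels of 5 of the 6 members than the 8 lines with 2 copies from the first founder. This comparison used only libraries of 1 set and none of the libraries on which the members were chosen. *Rhox5* was at 1002, 970, 1089 and 673 TPM in the 4 second-founder libraries. Per copy these were 337 at the lowest, 493 at the median and 544 at the highest, against 15.5, 132 and 353 over the 13 first-founder libraries. The only overlap was clone 1 of F, at 353 TPM per copy, above the lowest I-TEL library. The log2 fold change of *Rhox5* was 2.06 with a standard error (SE) of 0.22 (edgeR adjusted p = 3.70e-06). Over all 16646 genes tested 34.7% were called in this comparison, so a call by itself sets a member little apart from other genes.

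*Rhox6* per copy was at 53.2, 65.4 and 85.0 TPM (lowest, median and highest) in second-founder libraries and at 7.83, 38.0 and 61.4 in first-founder libraries. *Rhox9* was at 16.5, 18.7 and 24.2 against 1.96, 9.84 and 19.0. Both overlapped at the top of the first-founder range, where A and AB lay. The log2 fold changes were 1.15 (SE 0.16, adjusted p = 5.42e-05) and 1.19 (SE 0.16, adjusted p = 4.14e-05). *Rhox1* was at 8.59, 13.6 and 19.5 against 1.14, 6.61 and 10.4 TPM per copy, a change of 1.12 (SE 0.17, adjusted p = 0.000133). *Rhox10* was higher by 1.31 (SE 0.29, adjusted p = 0.00264), with 9 to 18 counts in second-founder and 1 to 13 in first-founder libraries. *Rhox13* was at 1.33, 1.79 and 1.98 against 0.192, 1.71 and 3.76 TPM per copy and did not pass (log2 fold change -0.16, adjusted p = 0.799).

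J alone passed in the same direction for *Rhox1*, *Rhox5*, *Rhox6*, *Rhox9* and *Rhox10*. I-TEL alone passed for *Rhox5* (1.96), *Rhox6* (1.03) and *Rhox9* (1.04) and not for *Rhox1* (0.54, adjusted p = 0.12) or *Rhox10* (1.02, adjusted p = 0.0775). The founder was represented by these 2 lines only, so what the founder brought, its other *Rnf12* deletion included, and what the 2 deletions brought cannot be told apart. With the 10 line means as units, the exact two-sided permutation test gave p = 0.0444 for *Rhox5* and *Rhox6*, the smallest that 2 against 8 lines allow, 0.0889 for *Rhox10*, 0.133 for *Rhox9*, 0.178 for *Rhox1* and 0.844 for *Rhox13*. Adjusted over all genes, such a test could not pass.

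Fibroblast markers moved with the founder. Their summed level was 142, 222.5 and 266 TPM (lowest, median and highest) in second-founder libraries and 71.2, 99.2 and 239 in first-founder libraries, and 7 of the 9 markers passed as higher, 0 as lower, with a median log2 fold change of 1.12. Primitive endoderm markers, of the extraembryonic lineage that mESCs can form, were at 26.0, 29.6 and 32.0 against 15.0, 17.7 and 26.2 TPM, with 5 of 7 higher. Over the 20 libraries, which share their lines and founders, the log2 level of the fibroblast markers had a Pearson correlation with log2(TPM per copy + 1) of 0.81 with *Rhox1*, 0.72 with *Rhox9*, 0.66 with *Rhox5*, 0.64 with *Rhox10*, 0.62 with *Rhox6* and 0.49 with *Rhox13*. Within the 13 first-founder libraries the values were 0.78, 0.70, 0.60, 0.51, 0.66 and 0.69 in the same order of genes. In the libraries of lines that lack the *Mus* copy of the cluster, allele-assigned *Rhox6* counts were *Mus* in 0 of 45 cases in C, 0 of 31 in C-G and 2 of 204 in XCastO129. The strain of the feeders is not given in the sources used here, and the part of feeder RNA in the *Rhox* differences was not tested.

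**Figure D3:**
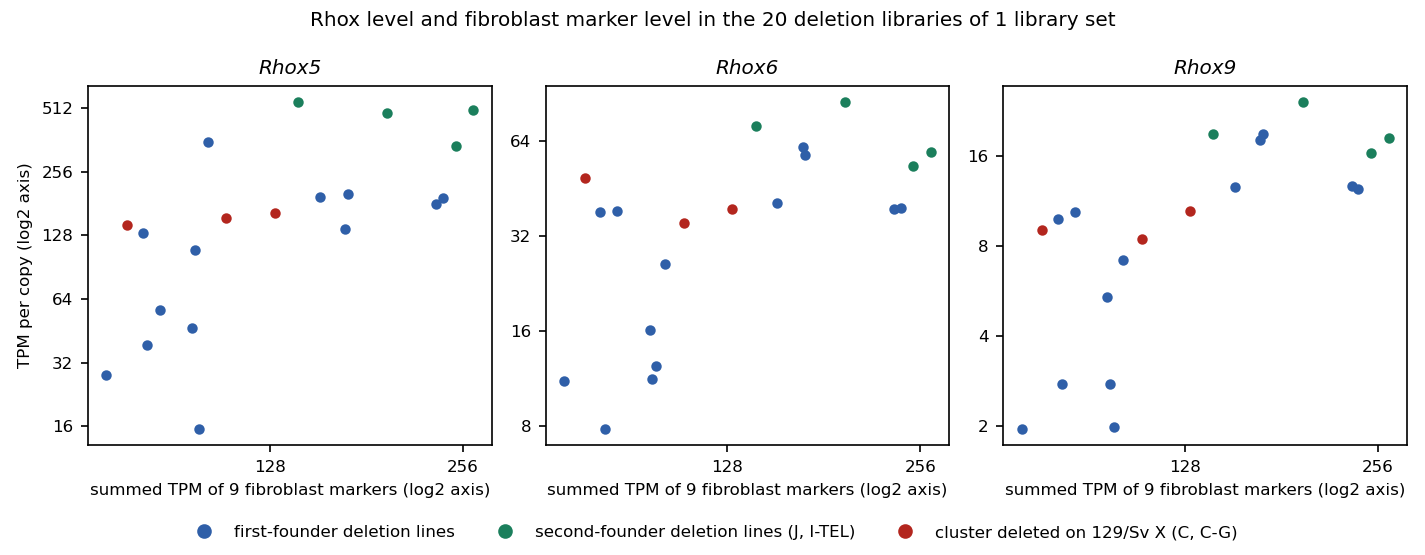
TPM per copy of *Rhox5*, *Rhox6* and *Rhox9* (vertical axis, log2 scale) against the summed TPM of 9 fibroblast markers (horizontal axis, log2 scale) in the 20 deletion libraries of 1 library set, coloured by founder and by deletion of the cluster. The 4 second-founder libraries lie toward the upper right, between 142 and 266 TPM of the markers.

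Lists of genes related to the cluster by pathway moved in different directions in this comparison. Of 16 germline genes known to be repressed by DNA methylation, 3 were higher, 6 lower and 5 did not pass in second-founder lines, and 2 were not tested. *Taf7l*, a germ cell paralogue of a general transcription factor subunit, fell by 1.60 on the log2 scale, *Mael*, a factor of transposon silencing, by 1.28 and *Sycp3*, of the synaptonemal complex, by 1.27, while *Hormad1*, of the meiotic chromosome axis, rose by 1.03. Of 8 enzymes and cofactors that write or erase DNA methylation, 4 were lower and 0 higher: *Dnmt3a* (-0.63), *Dnmt3b* (-0.55), *Tet1* (-0.17) and *Dnmt1* (-0.15). Of 7 genes of the RNF12 and *Xist* axis, 4 were higher, among them *Xist* (1.16) and its antisense gene *Tsix* (0.54), 0 were lower and 1 was not tested. *Xist* was close to the limit of detection, with a median of 0.536 TPM in first-founder and 1.45 TPM in second-founder libraries. The medians of these lists were -0.36, -0.17 and 0.36, beside 0.02 over all genes and 1.17 over the 6 *Rhox* genes.

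Deletion C removed 1 of 2 copies of the cluster, and the question was whether the remaining *Cast* copy gave more RNA than a copy in the other lines. In total counts, 4 of the 6 members were lower in the 2 C clones than in the 10 lines with 2 copies, with 36.6% of all genes called. *Rhox5* was at 163 and 154 TPM in C and *Rhox6* at 39.1 and 35.3. *Rhox9* was at 10.5 and 8.44 TPM and *Rhox1* at 2.96 and 3.24. The log2 fold changes were -0.90 for *Rhox6* (SE 0.25, adjusted p = 0.0105) and -1.06 for *Rhox9* (SE 0.26, adjusted p = 0.00488). *Rhox5* was at -0.89, which did not pass (adjusted p = 0.0538). The loss of 1 copy of 2, with the other unaltered, gives -1 only where both copies gave equal RNA. *Rhox6* was read more from *Cast* than from *Mus* in all 13 lines with 2 copies, so -1 is not the value for an unaltered *Cast* copy of this gene.

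Per copy, *Rhox5*, *Rhox6*, *Rhox9* and *Rhox13* in C lay within the range of the other lines. The log2 fold changes were 0.11 for *Rhox5* (interval -0.53 to 0.75), 0.09 for *Rhox6* (-0.39 to 0.58), -0.06 for *Rhox9* (-0.57 to 0.45) and 0.14 for *Rhox13* (-1.06 to 1.34), and none passed. A rise of the remaining copy to the level of 2 copies, a log2 value of 1, lies outside the intervals of *Rhox5*, *Rhox6* and *Rhox9* and inside that of *Rhox13*. Smaller rises, up to 0.75 for *Rhox5*, 0.58 for *Rhox6* and 0.45 for *Rhox9*, lie inside these intervals. Of the 10 lines, 4 had a lower mean per copy than C for *Rhox5*, 3 for *Rhox6*, 3 for *Rhox9* and 5 for *Rhox13*. These intervals cover the spread of clones within lines and not that between lines, and 36.4% of all genes were called in C per copy. Division by copies counts the *Mus* and the *Cast* copy as equal, which the allele counts of *Rhox6* did not show.

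*Rhox1* and *Rhox10* were lower in C per copy. *Rhox1* had 8 and 9 counts in C and 722 counts over the 17 libraries of the other lines, and changed by -1.12 on the log2 scale per copy (SE 0.36, adjusted p = 0.0227). Its mean in C, 3.10 TPM per copy, was still above those of 2 of the 10 lines, H and I. The few allele-assigned *Rhox1* counts were 23 *Mus* and 12 *Cast* in XX wild type, 19 and 3 in J and 10 and 3 in E. *Mus* was not ahead in XX *Rnf12* +/- (2 and 2), K (1 and 1) and A (0 and 1). A value per copy counts both copies as equal, and the part of unequal copies in the lower *Rhox1* was not tested. *Rhox10* had 0 and 1 count in C and 129 over the other 17 libraries, and passed (adjusted p = 0.0450). The ratio of depth-scaled counts per copy was 12.8% with an exact interval of 0.321% to 72.4%, which covers counting error only. None of the 10 lines with 2 copies had a lower mean of *Rhox10* per copy.

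The *Rhox10* call lay close to the threshold. It was lost on leaving out AB, either clone of D or H, the second clone of F, the first clone of I, I-TEL, J or K, or either clone of C. Without either clone of C the *Rhox1* call was lost too (adjusted p = 0.163 and 0.128), and in total counts 2 members passed in place of 4. With 1 library left out at a time, the log2 fold change per copy was -1.19 to -1.03 for *Rhox1* and -5.56 to -1.58 for *Rhox10*.

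C-G, a single clone whose larger deletion contains that of C, gave no call. No member passed per copy by edgeR, with 0.679% of genes called, while 2 had an unadjusted p under 0.05 and DESeq2 called none. *Rhox1* had 3 counts (log2 fold change -2.56, adjusted p = 0.0849) and *Rhox10* had 0 counts, which allows up to 3. *Rhox6* was at 49.1 TPM and *Rhox5* at 142, with log2 fold changes per copy of 0.49 and -0.04. C and C-G together held 30.7% of the *Rhox1* level per copy of the 10 lines (exact interval 18.6% to 47.8%) and 8.60% of that of *Rhox10* (0.216% to 48.7%). The difference between C-G and C was tested, and no member passed.

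**Figure D4:**
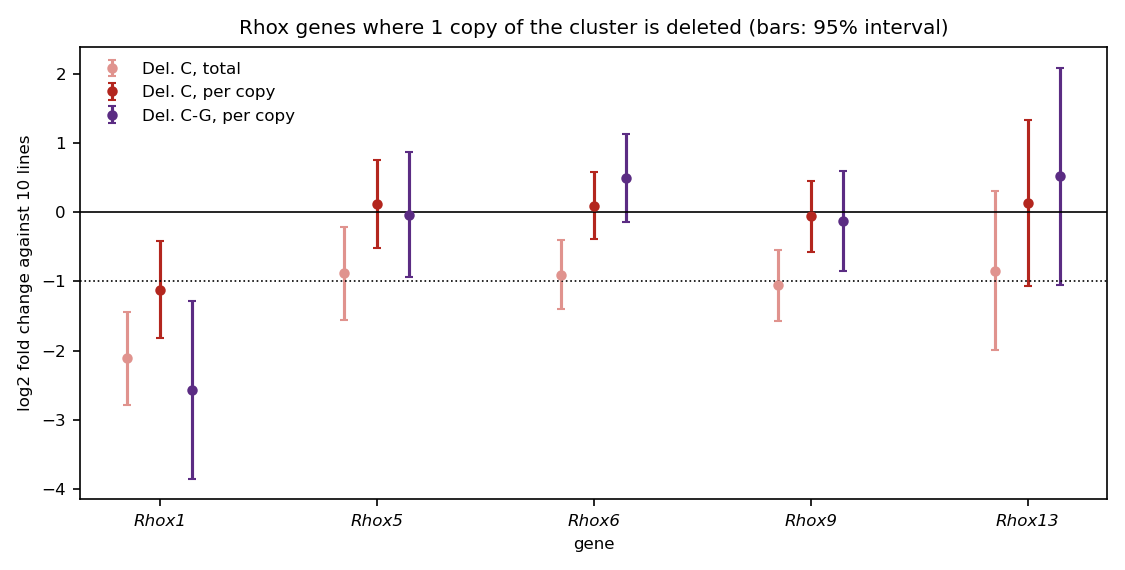
Log2 fold change of 5 *Rhox* genes against the 10 lines with 2 copies, in total counts of deletion C, per copy in C and per copy in C-G, with bars of the 95% interval. The dotted line at -1 is the loss of 1 copy of 2 where both copies give equal RNA. *Rhox5*, *Rhox6* and *Rhox9* lie near it in total counts and near 0 per copy. *Rhox10* is left out because its counts in these lines were 0 or 1.

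Reads that carry a strain variant gave the *Cast* copy directly for the *Rhox6* and *Rhox9* pair. In C, 45 *Rhox6* and 8 *Rhox9* counts were assigned to *Cast* and 0 to *Mus*. All 8 of *Rhox9* came from clone 1, while clone 2 had 0 allele-assigned counts among its 66. *Cast*-assigned counts of C against the 10 lines gave a log2 fold change of -0.36 for *Rhox6* (interval -0.93 to 0.21, adjusted p = 0.423) and -0.56 for *Rhox9* (-2.04 to 0.92, adjusted p = 0.660). Neither passed, also at an unadjusted p under 0.05 or by DESeq2. By edgeR, 18.0% of 9464 genes were called, and *Rhox1*, *Rhox5*, *Rhox10* and *Rhox13* had too few such counts to be tested. For *Rhox6* the interval again holds no rise to the level of 2 copies.

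Of the 3 expressed genes on either side of the cluster, the distal ones were higher in C. Per copy, *Lamp2*, a lysosomal membrane protein, rose by 1.1, *Zbtb33*, which encodes the methyl-CpG binding protein Kaiso, by 0.64 and *Cul4b*, a ubiquitin ligase scaffold, by 0.56. *Rnf113a1* on the proximal side fell by 0.92, and *Ndufa1* (-0.01) and *Nkap* (0.14) did not pass. On the *Cast* allele alone *Lamp2* was higher in C by 1.20 (adjusted p = 0.00034). Of the germline list 10 of 16 genes were higher in C and 0 lower, with *Taf7l* at 1.66, *Dpep3* at 1.66 and *Slc25a31* at 1.55. Of the methylation list 4 of 8 were lower, among them *Dnmt3b* (-0.90). Over all genes 36.4% were called in C per copy.

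In C-G, which lacks the same copy, none of these 6 neighbours passed per copy by edgeR (1 at an unadjusted p under 0.05), with *Lamp2* at 0.19, *Zbtb33* at -0.30 and *Cul4b* at 0.15. Of the germline list 0 genes and of the methylation list 0 genes passed in C-G by edgeR, with 5 and 1 at an unadjusted p under 0.05 and a germline median of -0.21. In the direct test of C-G relative to C, *Lamp2* (-0.91) and *Zbtb33* (-0.93) were lower, 4 germline genes were lower and 0 higher, and 5 of the 8 methylation genes were higher. The fibroblast marker sum was 110 and 130 TPM in C, inside the first-founder range.

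The XO lines differed from each other in the *Rhox* genes. They belong to the same library set, and neither of them was used to choose the members. *Rhox5* was at 228 and 196 TPM in XCastO129 and at 65.8 and 67.2 in X129OCast. *Rhox6* was at 55.3 and 57.7 TPM against 10.7 and 14.1. *Rhox1* had 3 and 2 counts in XCastO129 and 11 and 11 in X129OCast. For each of these genes the 2 lines did not overlap, nor did the lines for *Rhox9*, at 8.27 and 11.4 TPM against 4.03 and 7.20. How many of all genes lack overlap with 2 libraries per line was not counted.

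Taking X129OCast relative to XCastO129, *Rhox6* was lower (-2.15 on the log2 scale, SE 0.38, adjusted p = 0.00302), as was *Rhox5* (-1.63, SE 0.41, adjusted p = 0.0249), and *Rhox1* was higher (2.14, SE 0.61, adjusted p = 0.0444). The *Rhox1* ratio was 4.36 by depth-scaled counts, with an exact interval of 1.61 to 14.7. *Rhox9* (-0.77), *Rhox10* (0.53) and *Rhox13* (0.39) did not pass. The 3 calls stood against 5.81% of all genes. Without the first X129OCast library none passed, without the second 1 did, and without the first XCastO129 library 1 did, with 1 library left in that line. Over all cases of 1 library left out, the log2 fold changes kept their size, at 1.88 to 2.46 for *Rhox1*, -1.75 to -1.51 for *Rhox5* and -2.34 to -1.97 for *Rhox6*. The lines differ in the X they kept and in *Rnf12* (*Rlim* log2 fold change -4.35) at once, and these cannot be told apart.

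In the same comparison none of the 15 germline genes tested and none of the 9 fibroblast markers passed. *Dnmt3a* was higher by 1.00 and *Tet2* lower (-0.57), 4 of 6 primordial germ cell markers and 3 of 7 naive markers were lower, and none of the 6 neighbouring genes passed. The fibroblast marker sum was between 94.5 and 216 TPM in the XO libraries.

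Against XX *Rnf12* +/-, per copy, XCastO129 had higher *Rhox5* (1.63, SE 0.39, adjusted p = 0.00329) and *Rhox6* (1.14, SE 0.33, adjusted p = 0.0123) and lower *Rhox1* (-2.997, SE 0.52, adjusted p = 0.000206), with 33.5% of all genes called. The XCastO129 level of *Rhox1* was 11.7% of that per copy in XX *Rnf12* +/- by depth-scaled counts (exact interval 3.74% to 28.2%). X129OCast was lower in *Rhox6* (-1.01, SE 0.38, adjusted p = 0.0354) with 44.4% of genes called, and its *Rhox5* log2 fold change was 0.00 with an interval from -0.80 to 0.80. These comparisons share the XX *Rnf12* +/- libraries, the members were chosen on them, and the loss of an X cannot be told apart from the library set and single reads. The *Rhox6* call of XCastO129 was lost without the second XX *Rnf12* +/- library (adjusted p = 0.0732), and that of X129OCast was lost without the first XX *Rnf12* +/- library or without either X129OCast library.

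Allele-assigned counts existed for *Rhox6* (2281, 23.1% of its counts) and *Rhox9* (657, 9.09%), for *Rhox1* 119 and for *Rhox13* 10, and for *Rhox5* and *Rhox10* there were 0 in all 30 libraries, so that the copy from which *Rhox5* RNA came is not known. *Rhox6* was read more from *Cast* than from *Mus* in all 13 lines with 2 copies, and its interval lay above 50% in 8 of them. Its *Cast* share was 63.8% in XX wild type (95% Wilson interval 60.4% to 67.1%, 777 counts) and 59.8% in XX *Rnf12* +/- (51.0% to 68.1%, 122 counts). It was 73.3% in I-TEL (65.6% to 79.8%) and 66.7% in J (59.7% to 73.0%). Over all X-linked genes the share was 46.6% to 48.1% in XX wild type, 44.6% to 47.04% in XX *Rnf12* +/-, 55.3% to 55.5% in I-TEL and 49.9% to 50.3% in J. The intervals of *Rhox6* lay above these values in each of the 4 lines. From XX wild type to XX *Rnf12* +/- the *Mus*-assigned counts of *Rhox6* went from 281 to 49 and the *Cast*-assigned counts from 496 to 73, so that both copies gave fewer.

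*Rhox9*, with fewer counts, was at 61.1% *Cast* in XX wild type (54.5% to 67.3%) and 63.5% in XX *Rnf12* +/- (49.9% to 75.2%), but at 37.5% in deletion E (26.7% to 49.8%) and 41.7% in J. Its share was above 50% in 4 of the 13 lines with 2 copies. Intervals cover counting error only, and reads of the sequence that *Rhox6* and *Rhox9* share may add to either. In lines with 1 copy the counts followed the copy present. *Rhox6* gave 0 *Cast* counts of 50 in X129OCast, which allows up to 6%, and 0 *Mus* counts of 45 in C, which allows up to 6.67%, and of 31 in C-G, up to 9.68%. *Rhox9* gave 0 of 16 *Cast* in X129OCast and 31 of 31 *Cast* in XCastO129.

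**Figure D5:**
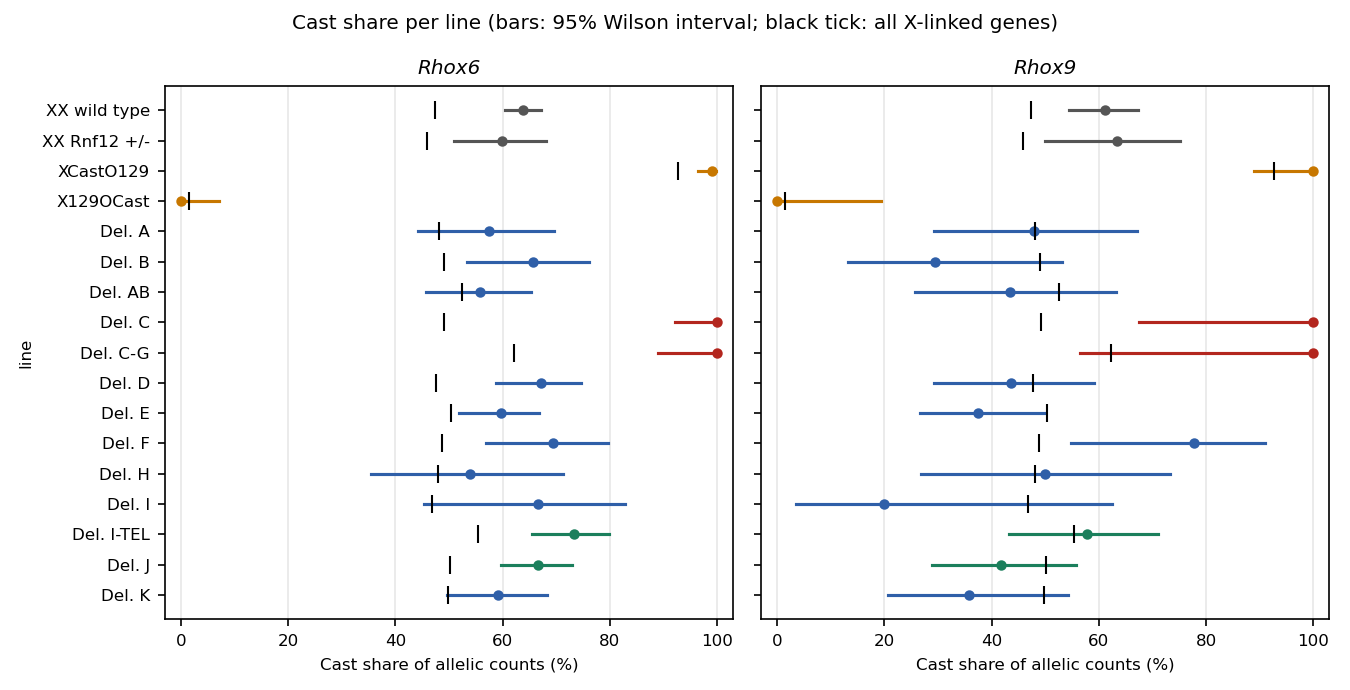
Share of allele-assigned *Rhox6* and *Rhox9* counts that came from *Cast* (horizontal axis, percent) by line (vertical axis), with 95% Wilson intervals and, as black ticks, the share over all X-linked genes. *Rhox6* lies at 63.8% in XX wild type against an X-wide share of 46.6% to 48.1%, and at 100% in C and C-G.

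Within the cluster the members varied together over the 20 deletion libraries of 1 library set. The Pearson correlation of log2(TPM + 1) was 0.97 between *Rhox6* and *Rhox9*, which share sequence, 0.84 between *Rhox5* and *Rhox9* and 0.81 between *Rhox5* and *Rhox6*. These levels were not divided by copies, so the copy missing in C and C-G enters each value. *Rhox1* was at 0.79 with *Rhox5*. *Rhox10* was at 0.42 to 0.45 with *Rhox5*, *Rhox6* and *Rhox9*, and *Rhox13* at 0.31 with *Rhox10*, both from few counts. These are descriptions over libraries that share founders and lines.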

How the data were processed

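RNA was counted in 30 libraries of 17 conditions. The authors' table holds deposited read counts per gene, without normalization, in total and per allele. Per the labels, reads were trimmed (Trim Galore 0.6.7), aligned (HISAT2 2.2.1, mm10) and counted (HTSeq 0.12.4), while the methods name featureCounts. The strand setting of the counting is not given in the sources used here. Of 55421 genes, 55240 matched GENCODE M21, and 181 did not and were left out. TPM were computed from union exon length. Groups follow the labels. Differences were tested with edgeR 4.0.16 (quasi-likelihood, TMM on autosomal genes, Benjamini-Hochberg over all genes tested, adjusted p under 0.05), on genes with 10 counts in 2 libraries, with an offset for X copies, with 95% intervals from the SE. Fits used the 30 libraries, or the 20 of 1 library set for deletion C, C-G and founder comparisons. DESeq2 1.42.0 was an alternative. The scripts were tested on simulated data. Genes named beyond the 6 members are other *Rhox* genes past the filter, the 3 nearest protein-coding genes on each side with a mean of over 5 TPM in XX *Rnf12* +/-, the 5 genes most alike in level to *Rhox5*, *Rhox6* and *Rhox9*, and up to 4 members of each list by size of change, of those called. Members and lists were chosen with earlier results of these data known. Replicates differed by more than counting error, and replicate numbers were not used to pair samples.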

Additional observations from a re-analysis of the deposited data

Results flagged for a closer look

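Values of 3 members differed between the XO lines by a test of the difference itself, as log2 fold changes of X129OCast relative to XCastO129: 2.14 for *Rhox1*, -1.63 for *Rhox5* and -2.15 for *Rhox6*. Over all genes 5.81% were called there. Values of 5 members differed between lines of the second and the first *Rnf12* +/- founder: 1.12 for *Rhox1*, 2.06 for *Rhox5*, 1.15 for *Rhox6*, 1.19 for *Rhox9* and 1.31 for *Rhox10*. In that comparison 34.7% of all genes were called. With line means as units, the exact permutation test gave p = 0.0444 for *Rhox5* and *Rhox6*. It gave 0.178 for *Rhox1*, 0.133 for *Rhox9* and 0.0889 for *Rhox10*. No group had the 4 libraries that a search for a library standing apart needs.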

How the results depend on the processing

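The absence of calls for the *Cast* allele in deletion C held under every alternative run. XCastO129 against XX *Rnf12* +/- had 3 calls under each, but without the second XX *Rnf12* +/- library *Rhox6* was not among them (adjusted p = 0.0732). Counts that moved are given here, and the cause was not tested. Without a filter on low counts, 26 pairs of a line and a member passed in place of 16, 1 member in place of 0 for deletion E, 1 in place of 0 for C-G and 1 in place of 2 for C per copy. For C per copy, 1 passed also with DESeq2, with a filter on TPM over 5, with all 30 libraries in the fit and with the replicate number as a block (*Rhox10* adjusted p = 0.0559). With DESeq2's size factors, 2 members in place of 1 passed for X129OCast against XX *Rnf12* +/-. In the founder comparison 3 members passed with I-TEL alone and 2 by the permutation of line means in place of 5. Without J and I-TEL 10 pairs of a line and a member passed, an alternative added after the data were seen, as was that permutation. Leaving out 1 library at a time gave 4 to 16 pairs over the lines, 0 to 2 members for X129OCast against XX *Rnf12* +/-, 0 to 2 for X129OCast against XCastO129 in place of 3, 0 to 2 for C per copy, 2 to 5 for C in total counts, and 5 in every case for the founder. XX *Rnf12* +/- against XX wild type had a median log2 ratio of -1.95, and -2.35 to -1.40 with 1 library left out. *Rhox10* there was at 0.22 and turned to -0.0066 with log2(TPM + 1), and went to -1.24 and 0.93 without the second and the first *Rnf12* +/- library. Replicate 2 minus replicate 1 differences correlated at 0.79 between the XX lines and at -0.44 to 0.79 over 78 pairs of groups (median 0.010). The XX lines were the highest pair, so their equally numbered libraries deviated together, while over the groups as a whole the number did not mark pairs. The block left 15 of 16 pairs over the lines, 5 members in the founder comparison and 2 of 3 between the XO lines, where *Rhox1* went to an adjusted p of 0.0507. DESeq2 called 4 members in the founder comparison, 14 pairs over the lines and 2 members between the XO lines. Over the single members, 330 values were labelled the same, 39 lost their call and 2 changed sign. This tally includes the values of XX *Rnf12* +/- against XX wild type, which had no call and were labelled by sign and size. *Rhox10* and *Rhox13* had a median of only 9 and 10 counts over the 30 libraries, which limits what can be read from them.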

Other observations

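The genes whose log2 level was most like that of *Rhox5* over the 20 deletion libraries, of 11981 genes compared, were *Gm13228* (Pearson r 0.93), *Smtnl1* (0.88), *Folr1* (0.88), *Cacnb3* (0.88) and *Stmn1* (0.87). *Smtnl1* encodes a smoothelin-like muscle protein, *Folr1* a folate receptor, *Cacnb3* a calcium channel subunit and *Stmn1* the microtubule regulator stathmin. For *Rhox6* they were *Rhox9* (0.97), *Cacnb3* (0.87), *Rps6kl1* (0.84), *Rhox2-ps* (0.84) and *Zp3* (0.84), an egg coat glycoprotein. For *Rhox9* they were *Rhox6* (0.97), *Cacnb3* (0.89), *Zp3* (0.86), *Rps6kl1* (0.85) and *Plbd1* (0.85). *Cacnb3* is thus named for all of *Rhox5*, *Rhox6* and *Rhox9*, of which the last 2 share sequence.

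Among the *Rhox* genes outside the 6 members, the pseudogenes *Rhox7-ps2* (at most 30 counts) and *Rhox2-ps* (at most 32) passed the filter on counts, and their reads may belong to close copies. Both were higher in second-founder lines, by 1.1 and 0.76 on the log2 scale. Of the other lists in that comparison, 1 of 7 naive markers was higher and 3 lower, 0 of 4 formative markers higher and 3 lower, 1 of 6 primordial germ cell markers higher and 3 lower, and 2 of 7 trophoblast markers higher and 2 lower. In deletion C per copy these lists gave 2 higher and 0 lower, 0 and 1, 2 and 2, and 1 and 1, in the same order. Over all genes 34.7% were called in the founder comparison and 36.4% in C per copy.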
